A study of Mus musculus with 36 samples.

Results

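Rab39b, Zfp300 and 2010204K13Rik are 3 X-linked genes whose share of transcripts from the inactive X chromosome (Xi) stood out in the K518E line at day 5 of differentiation. They were chosen by their day 5 values in K518E and in the Halo-SMCHD1 control line, so those values are given as a description without a test. All 3 are among the 242 genes of the table made with the K518E libraries. Zfp300 and 2010204K13Rik, but not Rab39b, are also among the 249 genes of the table made without them.

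The cells were interspecific XX mouse embryonic stem cells (mESCs) of the iXist-ChrX line, in which a TetOn promoter on the 129S allele of Xist lets doxycycline (dox, 1 µg/ml) switch on Xist RNA and so silence the 129S chromosome, while the Cast chromosome remains active (Xa). Halo-SMCHD1 carries an N-terminal Halo tag on SMCHD1 in these cells and served as the control. K518E, G137E, E147A and Y353C each carry their substitution in the GHKL ATPase domain of SMCHD1 on both alleles of Halo-SMCHD1, and LRIF1 KO lacks LRIF1 in the same background. SMCHD1 KO was made from iXist-ChrX without the tag. Each line is a single clone, so an effect of the substitution and of the clone cannot be told apart. K518E was added when the study was revised, and the labels do not say whether its libraries were made together with the others. An effect of separate preparation could not be told apart from that of K518E either. RNA bound to chromatin was sequenced (ChrRNA-seq), and Xi/(Xi+Xa) is the fraction of allele-assigned reads of a gene that carried the 129S allele. Halo-SMCHD1, G137E, K518E, E147A, Y353C and LRIF1 KO each gave 1 library before induction (uninduced) and 1 after 24 h with dox, both of undifferentiated cells. Monolayer differentiation under dox was sampled at day 5 in K518E, G137E and Halo-SMCHD1, with 2 libraries per line. At day 7 there were 3 libraries of G137E, 3 of Halo-SMCHD1 and 2 of every remaining line, SMCHD1 KO among them. Nothing in the labels says that replicates came from separately derived cells, so p values measure only the spread between these libraries.

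SMCHD1 is a non-canonical SMC protein that builds up gradually on the Xi once Xist RNA is induced. It takes part in silencing X-linked genes and in keeping them silent. LRIF1 is a protein that binds SMCHD1. An X-linked gene transcribed equally from both chromosomes has a value near 0.5, and silencing of the Xi copy lowers it towards 0. Rab39b encodes a small GTPase of the RAB family, proteins that direct membrane vesicles between compartments, and it is known for its role in neurons, where loss of the human gene causes intellectual disability and early parkinsonism. Zfp300 encodes a zinc finger protein of the DNA-binding C2H2 kind. 2010204K13Rik gives a long non-coding RNA.

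In the coordinates of the tables (mm10), Rab39b lies at chrX:75572044-75578231, Zfp300 at chrX:21079149-21089229 and 2010204K13Rik at chrX:7411816-7422988, all on the minus strand. These intervals take in exons and introns, and reads were counted over both. GENCODE vM21 lists Rab39b as protein coding with 1 transcript of 2 exons, Zfp300 as protein coding with 3 transcripts of 3 to 5 exons, and 2010204K13Rik as a processed transcript with 4 transcripts of 2 to 4 exons. There the 2010204K13Rik gene spans chrX:7411817-7445143, so it starts well upstream of the interval counted here. Zfp300 starts slightly upstream, at 21089527. An antisense gene, Gm15063, overlaps 1817 bases of Rab39b on the opposite strand, and the authors counted reads by strand. No other annotated gene overlaps any of the 3 intervals.

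SMCHD1 is also known to be needed for DNA methylation of CpG-rich promoters on the Xi, so the promoters of the 3 genes are shown with each CG dinucleotide in capitals. They run from 250 bases before to 50 bases after the RefSeq start site that lies nearest to the start in the tables (GRCm38.p6, minus strand, 5′ to 3′), at chrX:75578182-75578481 for Rab39b, chrX:21089180-21089479 for Zfp300 and chrX:7422939-7423238 for 2010204K13Rik.
Rab39b: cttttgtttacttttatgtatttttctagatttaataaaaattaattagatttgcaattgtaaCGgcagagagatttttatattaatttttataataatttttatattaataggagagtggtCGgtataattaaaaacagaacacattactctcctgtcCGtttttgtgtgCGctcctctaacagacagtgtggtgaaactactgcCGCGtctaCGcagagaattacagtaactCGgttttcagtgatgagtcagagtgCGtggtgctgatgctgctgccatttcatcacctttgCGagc
Zfp300: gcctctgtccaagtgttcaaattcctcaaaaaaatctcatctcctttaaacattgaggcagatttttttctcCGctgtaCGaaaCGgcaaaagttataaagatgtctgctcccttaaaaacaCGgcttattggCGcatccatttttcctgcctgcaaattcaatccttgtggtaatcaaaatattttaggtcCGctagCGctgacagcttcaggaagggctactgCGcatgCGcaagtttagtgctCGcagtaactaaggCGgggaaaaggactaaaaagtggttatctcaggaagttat
2010204K13Rik: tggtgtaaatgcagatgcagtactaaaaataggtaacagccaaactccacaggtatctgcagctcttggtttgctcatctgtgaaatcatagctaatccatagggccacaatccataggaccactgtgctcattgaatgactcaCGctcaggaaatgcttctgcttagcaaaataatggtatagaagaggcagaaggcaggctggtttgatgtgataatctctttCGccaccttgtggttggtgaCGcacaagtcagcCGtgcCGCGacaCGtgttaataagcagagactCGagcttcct
The sequence is that of the reference mouse, not of the 129S or Cast chromosome. For 2010204K13Rik the window lies inside the longer GENCODE gene, so a start site further upstream is not covered. Rab39b has 10 CG dinucleotides in this window, Zfp300 has 11 and 2010204K13Rik has 8. CG reads the same on both strands. It occurs in 98% of the 202 promoters that could be matched to genes of the tables, and the median promoter has 17.5. As many as in Rab39b or more were found in 76.7% of these promoters, as many as in Zfp300 or more in 73.3%, and as many as in 2010204K13Rik or more in 85.1%. All 3 promoters thus held fewer CG dinucleotides than the median one. Methylation was not measured in these libraries.

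Xist, the check on which chromosome was silenced, was read mostly from the 129S allele already before induction, at 0.881 in Y353C, 0.909 in LRIF1 KO, 0.941 in G137E, 0.95 in E147A and 0.995 in Halo-SMCHD1. In K518E its fraction was 0.968 before and 0.998 after 24 h with dox, and between 0.998 and 0.999 in every differentiated library. The median of the 242 genes lay between 0.516 and 0.524 in the 3 uninduced libraries, between 0.212 and 0.278 after 24 h with dox, between 0.0371 and 0.0758 in the 6 day 5 libraries and between 0.0200 and 0.0442 in the 8 day 7 libraries. The K518E libraries had the lowest medians of their stage at day 5, with 0.0371 and 0.0432, against 0.0688 and 0.0606 in Halo-SMCHD1. Replicate 1 of Halo-SMCHD1 at day 7 stood apart, with 57 of 242 genes listed at 0 where the other 7 day 7 libraries had 10 to 42, and the day 7 differences of Zfp300 and 2010204K13Rik are therefore also given without it. No read counts come with the fractions, so how many reads stand behind a value is not known. Fractions as low as those of the 3 genes at day 5 can come from only a few 129S reads. A value of 0 says only that the gene is listed at 0. The tables hold X-linked genes only, so neither the level of autosomal Smchd1 and Lrif1 nor markers of stem cells could be checked.

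Of the 3 lines sampled at day 5, K518E alone had Rab39b above 0, and it alone had Zfp300 and 2010204K13Rik at 0 in both libraries. The K518E day 5 libraries had the fewest genes listed at 0, with 9 each. Halo-SMCHD1 had 10 and 19, and G137E had 17 in each library. Without read counts, a difference in depth between the libraries could not be checked, and it was not tested. Rab39b had a value of 0.0408 in replicate 1 and 0.0208 in replicate 2 of K518E. It was listed at 0 in both Halo-SMCHD1 and both G137E libraries. Zfp300 was listed at 0 in both K518E libraries, against 0.087 and 0.115 in Halo-SMCHD1. In G137E it was at 0 in replicate 1 and at 0.1 in replicate 2. 2010204K13Rik was likewise at 0 in both K518E libraries, against 0.0444 and 0.0541 in Halo-SMCHD1. In G137E it was at 0.0263 in replicate 1 and at 0 in replicate 2. K518E and Halo-SMCHD1 thus did not overlap for any of the 3 genes, which were chosen by these values. Of all 242 genes, 60.7% had K518E wholly below Halo-SMCHD1 and 5.79% wholly above. The G137E libraries spanned both levels for Zfp300 and lay below both Halo-SMCHD1 libraries for 2010204K13Rik.

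**Figure D1:**
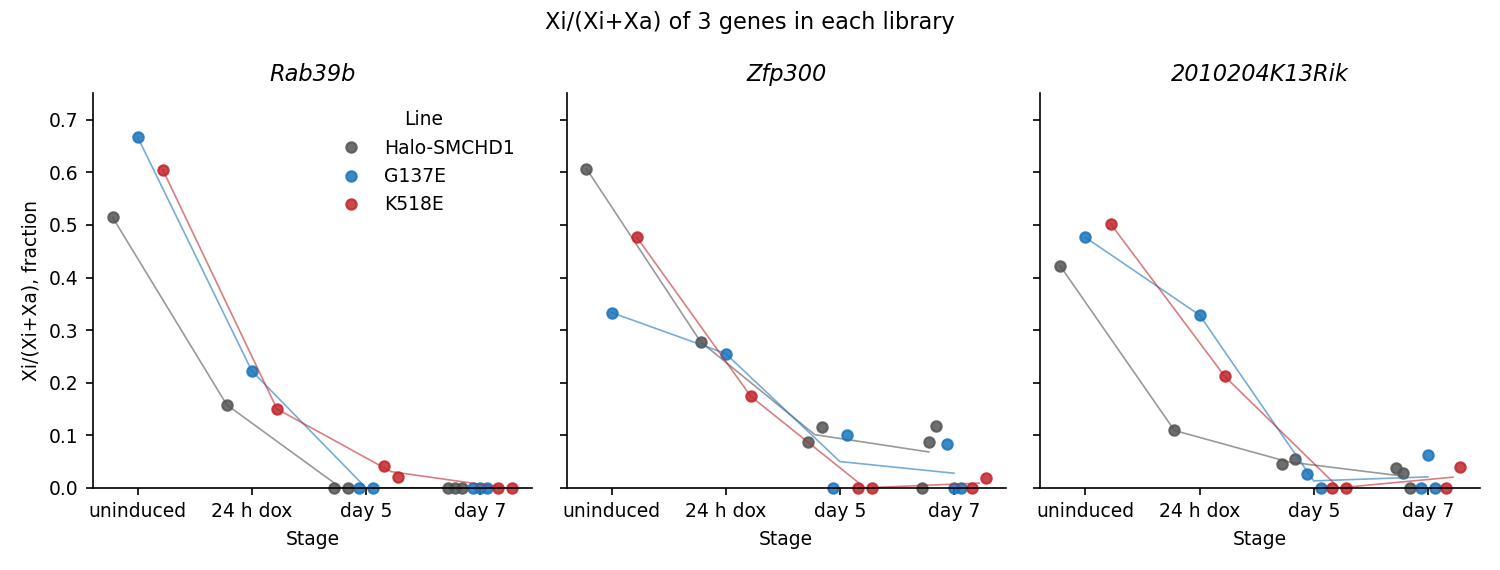
Xi/(Xi+Xa) of Rab39b, Zfp300 and 2010204K13Rik in each library (points) of Halo-SMCHD1, G137E and K518E by stage. Lines join the library means of a line, which start between 0.333 and 0.667 in uninduced cells and are at 0.0682 or less at day 7. At day 5 the red K518E points are the only ones above 0 for Rab39b, and both are at 0 for the other 2 genes.

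Across the chromosome most genes were lower in K518E than in Halo-SMCHD1 at day 5, so the direction of Zfp300 and 2010204K13Rik was the common one and that of Rab39b was not. Both K518E libraries were below both Halo-SMCHD1 libraries for 60.7% of the 242 genes and above both for 14 genes (5.79%). On a log2 odds scale, log2((r + 0.01)/(1 - r + 0.01)) with r the fraction, the median difference between K518E and Halo-SMCHD1 over the 242 genes was -0.46. In this contrast 0.413% of the genes passed a limma adjusted p of 0.05, but since its values chose the 3 genes, nothing is read from that share. Rab39b had the highest difference of all genes (2.03), followed by Cul4b (1.71) and Pgrmc1 (1.53). Zfp300 had the lowest (-3.62) and 2010204K13Rik the next (-2.63), followed by Elf4 (-2.29) and Tsix (-2.10). These sizes depend on the 0.01 added to values of 0. On the untransformed fractions Zfp300 was the 5th lowest with a difference of -0.101, 2010204K13Rik the 35th lowest with -0.0492, and Rab39b the 11th highest with 0.0308.

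**Figure D2:**
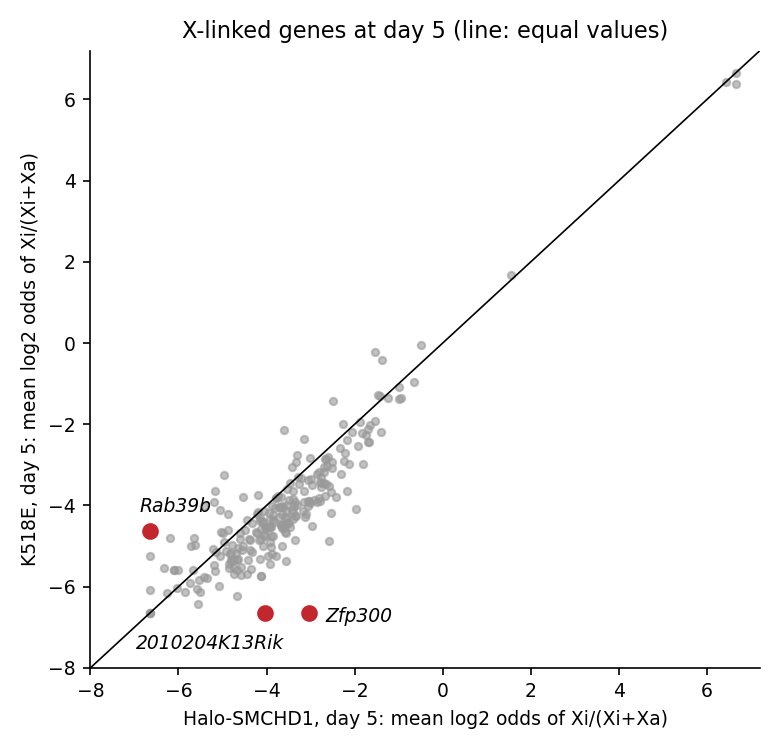
Mean log2 odds of Xi/(Xi+Xa) at day 5 in Halo-SMCHD1 (horizontal) and K518E (vertical), 2 libraries each, for 242 genes (points). Rab39b lies at the left edge, where Halo-SMCHD1 is at 0, and Zfp300 and 2010204K13Rik lie at the bottom, where K518E is at 0. Most other genes lie below the line of equal values.

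A value of 0 was uncommon at day 5. The 3 genes were chosen by their day 5 values in K518E and Halo-SMCHD1. That they stand out in the counts below is therefore a description, not a result. Only 5 of 242 genes (2.07%) were listed at 0 in both K518E day 5 libraries, and Zfp300 and 2010204K13Rik were the 2 of these that were above 0 in both Halo-SMCHD1 libraries. The other 3, Igsf1, Frmd7 and Kis2, were at 0 in Halo-SMCHD1 as well. In the opposite direction, 6 genes were at 0 in both Halo-SMCHD1 day 5 libraries, and Rab39b and Mcts1 were the 2 of these that were above 0 in both K518E libraries. Rab39b was the only gene of the table at 0 in every differentiated library of Halo-SMCHD1 and G137E. It was at 0 in 12 of the 14 differentiated libraries, and Zfp300 and 2010204K13Rik were each at 0 in 7. In all, 14 genes (5.79%) were at 0 in 7 or more of these libraries.

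Before induction, K518E was between the other lines for each of the 3 genes. Rab39b was at 0.514 in Halo-SMCHD1, 0.605 in K518E and 0.667 in G137E. Zfp300 was at 0.333 in G137E, 0.421 in LRIF1 KO, 0.474 in Y353C, 0.477 in K518E, 0.543 in E147A and 0.607 in Halo-SMCHD1. This range of 0.333 to 0.607 is wide for libraries whose medians are all near 0.52, and only 9 of the 242 genes in the G137E library were lower there. 2010204K13Rik was at 0.422 in Halo-SMCHD1, 0.476 in G137E, 0.502 in K518E, 0.522 in Y353C, 0.573 in E147A and 0.604 in LRIF1 KO. With 1 library per line and stage, the order of the lines has no error estimate.

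All 3 genes lost Xi transcripts within 24 h of dox, in every line measured. Rab39b fell to 0.158 in Halo-SMCHD1, 0.222 in G137E and 0.15 in K518E. Its change over 24 h was -2.73 in log2 odds (SE 0.20, n = 3 lines, limma with the line as a block, adjusted p = 0.000331). Zfp300 fell to 0.278 in Halo-SMCHD1, 0.255 in G137E, 0.174 in K518E, 0.269 in LRIF1 KO, 0.14 in E147A and 0.204 in Y353C. Its change was -1.68 in log2 odds (SE 0.27, n = 6 lines, limma adjusted p = 0.000358). 2010204K13Rik fell to 0.109 in Halo-SMCHD1, 0.329 in G137E, 0.212 in K518E, 0.198 in LRIF1 KO, 0.267 in E147A and 0.268 in Y353C. Its change was -1.86 (SE 0.22, n = 6 lines, limma adjusted p = 3.86e-05). No uninduced value of any of the 3 genes was as low as the highest of its 24 h values.

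A fall over 24 h was the rule on this chromosome. Limma called 96.7% of 239 genes over the 6 lines, with a median change of -1.61, and 93% of 242 genes over the 3 lines of the table with K518E, with a median of -1.72. The change of Zfp300 and 2010204K13Rik was close to these medians. That of Rab39b was the 40th lowest of 242. After 24 h Rab39b retained 24.8% of its uninduced value in K518E, 30.7% in Halo-SMCHD1 and 33.3% in G137E, where the median gene retained 42%, 45.6% and 55%. Zfp300 retained 36.5% in K518E and 76.6% in G137E, and 2010204K13Rik 42.2% and 69%. The G137E line kept the highest share of all lines for both genes. For Zfp300 it started from the lowest uninduced value, 0.333. Its 24 h value of Zfp300, 0.255, was below those of Halo-SMCHD1 (0.278) and LRIF1 KO (0.269).

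**Figure D3:**
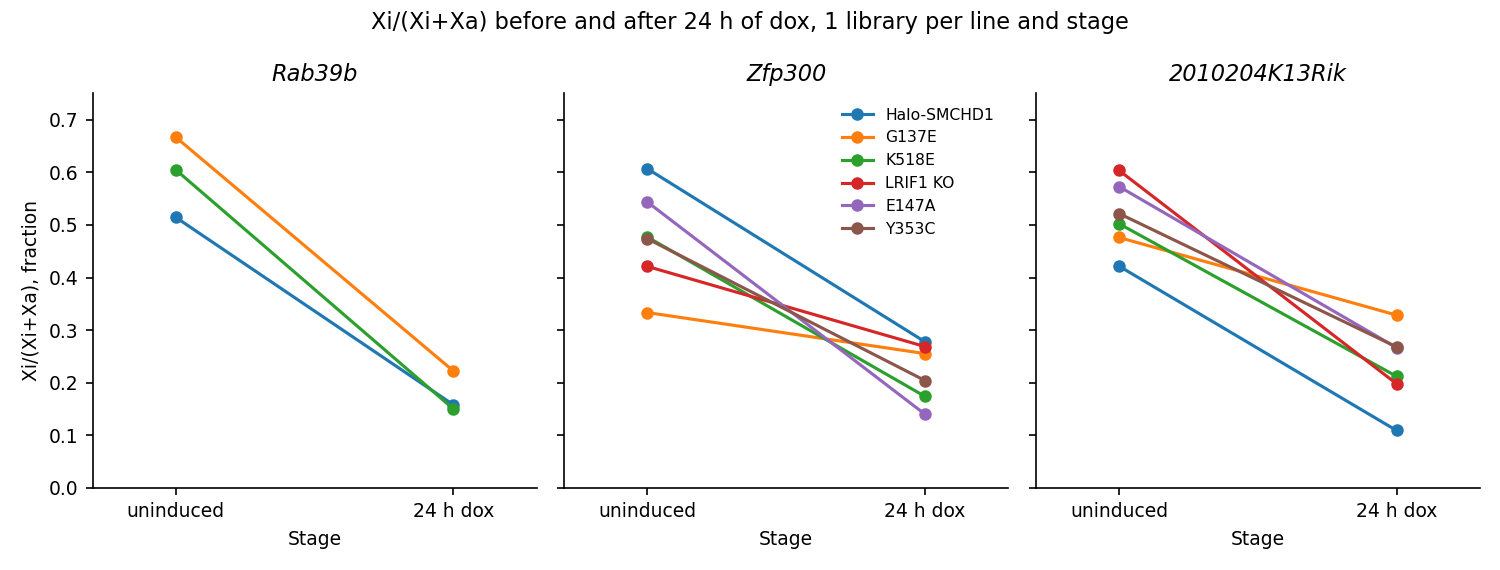
Xi/(Xi+Xa) of each gene in 1 uninduced library and 1 library after 24 h of dox per line (joined points). Every line falls, over 3 lines for Rab39b and 6 for the other 2 genes. The G137E line (orange) has the flattest slopes for Zfp300 and 2010204K13Rik, and for Zfp300 it starts lowest, at 0.333.

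By day 7 the K518E values of the 3 genes were no longer set apart from those of Halo-SMCHD1. Rab39b was listed at 0 in all 8 day 7 libraries, and it was the only gene of the table for which this held. With no spread of its own at day 7, its test there carries no information and is not given. Zfp300 was at 0 and 0.0179 in K518E, against 0, 0.087 and 0.118 in Halo-SMCHD1. In G137E it was at 0.0833, 0 and 0. K518E and Halo-SMCHD1 overlapped, with a difference of -1.67 in log2 odds (SE 1.5, 95% interval -5.25 to 1.91, limma adjusted p = 0.962). Without replicate 1 of Halo-SMCHD1 the difference was -2.88 (limma adjusted p = 0.599), and it was -0.92 without replicate 1 of K518E and -0.95 without replicate 3 of Halo-SMCHD1. 2010204K13Rik was at 0 and 0.0405 in K518E, against 0.0385, 0.0286 and 0 in Halo-SMCHD1. In G137E it was at 0, 0.0625 and 0. Its difference between K518E and Halo-SMCHD1 was -0.24 (SE 1.23, 95% interval -3.20 to 2.71, limma adjusted p = 0.989). The sign turned to 0.20 without replicate 1 of Halo-SMCHD1, and it also turned without either of 2 other libraries. In K518E both genes were at 0 in replicate 1 and above 0 in replicate 2.

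The day 7 contrast of K518E with Halo-SMCHD1 called 0% of 242 genes with limma (0 genes, 12 at an unadjusted p under 0.05), so the genes that did not pass were the rule. The contrast of G137E with Halo-SMCHD1 also called 0% (0 genes, 12 at an unadjusted p under 0.05). There the difference was -1.30 for Zfp300 (SE 1.34, 95% interval -4.51 to 1.90, limma adjusted p = 0.979) and -0.46 for 2010204K13Rik (SE 1.10, 95% interval -3.10 to 2.19, limma adjusted p = 0.979). Without replicate 1 of Halo-SMCHD1 these were -2.51 and -0.011, and 3 genes were called. The intervals span more than 4 log2 units, so neither a rise nor a fall of either gene was detectable at day 7. The difference between days 5 and 7 itself was not tested.

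In E147A and Y353C, the lines with the most genes called higher than in Halo-SMCHD1 at day 7, Zfp300 was listed at 0 in both libraries. In SMCHD1 KO it was at 0 and 0.0588. In LRIF1 KO it was at 0 in replicate 1 and at 0.214 in replicate 2, the highest of its day 7 values. Over the 14 day 7 libraries of the table without K518E, Zfp300 was at 0 in 9. Of these 14, the unnumbered E147A library stood apart with the highest median over the 249 genes, 0.101. E147A replicate 1 had 0.0526, and the next highest was 0.0714 in SMCHD1 KO replicate 2. The contrasts of E147A and of Y353C with Halo-SMCHD1 called 9.64% and 2.81% of 249 genes with limma, all of them higher, and the median difference was 0.87 and 0.52. The 24 genes called for E147A became 8 without replicate 1 of Halo-SMCHD1, 2 without its own unnumbered library and 57 without its replicate 1, and the 7 called for Y353C became 1 without replicate 1 of Halo-SMCHD1 or without either Y353C library. Zfp300 had the lowest difference of all 249 genes in both contrasts, -2.42 in each (SE 1.66, 95% interval -6.13 to 1.29, limma adjusted p = 0.296 for E147A and 0.466 for Y353C), and did not pass the test. Without replicate 1 of Halo-SMCHD1 it was -3.63 in each. The size of a difference from a group listed at 0 depends on the constant added.

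2010204K13Rik was above 0 in more of these libraries. It was at 0.111 and 0.0286 in SMCHD1 KO, the former being the highest of its day 7 values. In Y353C it was at 0.0222 and 0.0645, in E147A at 0 and 0.0333 and in LRIF1 KO at 0 and 0.0625. It was at 0 in 5 of the 14 day 7 libraries of that table, among them 1 of 3 of Halo-SMCHD1. Its difference from Halo-SMCHD1 was 0.92 for Y353C (SE 1.25, 95% interval -1.87 to 3.71, limma adjusted p = 0.68), with 0.196 to 1.55 on leaving out a library and 1.36 without replicate 1 of Halo-SMCHD1. It was -0.36 for E147A (SE 1.25, 95% interval -3.15 to 2.43, limma adjusted p = 0.82). The E147A value turned to 0.09 without replicate 1 of Halo-SMCHD1. The contrast of LRIF1 KO with Halo-SMCHD1 called 0% of 249 genes (limma, 0 genes, 24 at an unadjusted p under 0.05). For LRIF1 KO the difference was 0.03 for 2010204K13Rik (95% interval -2.76 to 2.82) and 0.00 for Zfp300 (95% interval -3.71 to 3.70), and the sign of each changed with the constant added or the library left out. Without replicate 1 of Halo-SMCHD1 they were 0.48 and -1.21. When the 7 lines were ordered by their day 7 values, the libraries of lines next to each other overlapped for both genes. These contrasts share the Halo-SMCHD1 libraries. SMCHD1 KO has no contrast here, since the line it was made from was not analysed.

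**Figure D4:**
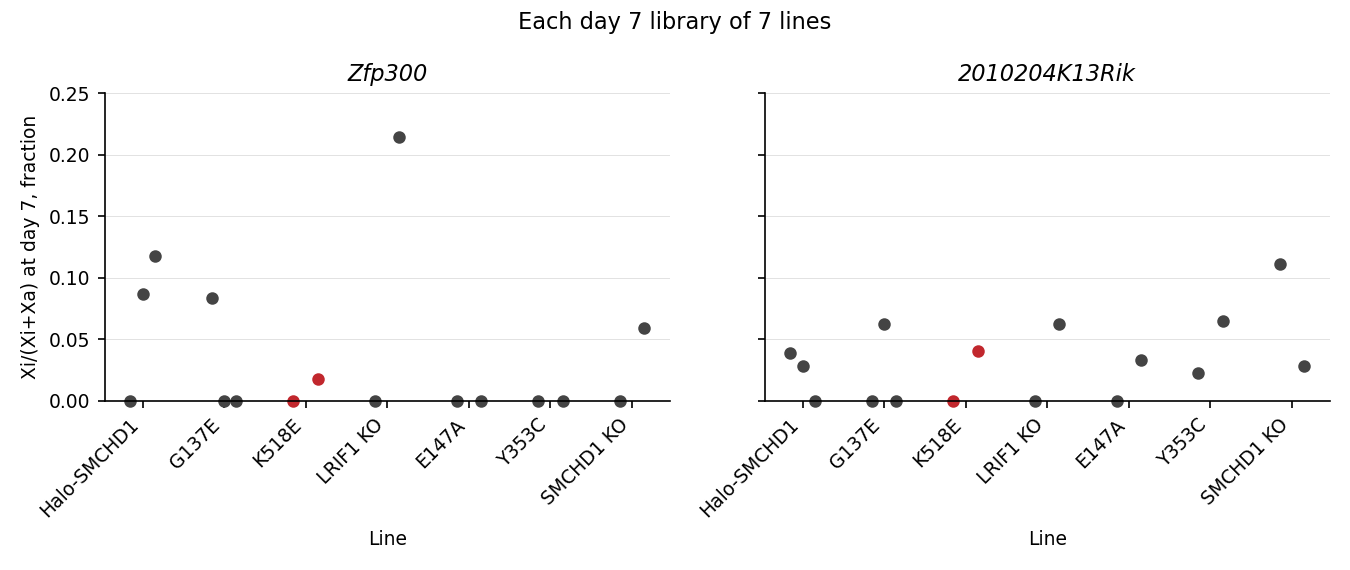
Xi/(Xi+Xa) of Zfp300 and 2010204K13Rik in each day 7 library (points) of 7 lines, with K518E in red. Zfp300 is at 0 in all 4 libraries of E147A and Y353C, and in every other line it has a library at 0 beside 1 or 2 above it. For 2010204K13Rik the points of all 7 lines overlap, from 0 to 0.111.

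Most genes next to each of the 3 were lower in K518E than in Halo-SMCHD1 at day 5, as were most genes of the table. The 3 genes were chosen by their day 5 values. That their neighbours were less extreme therefore carries no information. Of 12 measured genes with their midpoint within 0.5 Mb of Zfp300, 10 were lower in K518E than in Halo-SMCHD1 at day 5, with a median difference of -0.53. The nearest of them, the zinc finger gene Zfp182, went from 0.128 to 0.0759, a difference of -0.77, where Zfp300 had -3.62. Of 17 genes within 0.5 Mb of 2010204K13Rik, 16 were lower, with a median of -0.66. The exception was Plp2, a membrane proteolipid gene, at 0.145 in Halo-SMCHD1 and 0.266 in K518E. Of 9 genes within 0.5 Mb of Rab39b, 8 were lower, with a median of -0.37. The nearest, Vbp1, which encodes a subunit of the chaperone prefoldin, was at 0.126 in Halo-SMCHD1 and 0.0997 in K518E. The exception was 4933407K13Rik, at 0.093 in Halo-SMCHD1 and 0.157 in K518E. Over all 242 genes, 193 were lower, with a median of -0.46.

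**Figure D5:**
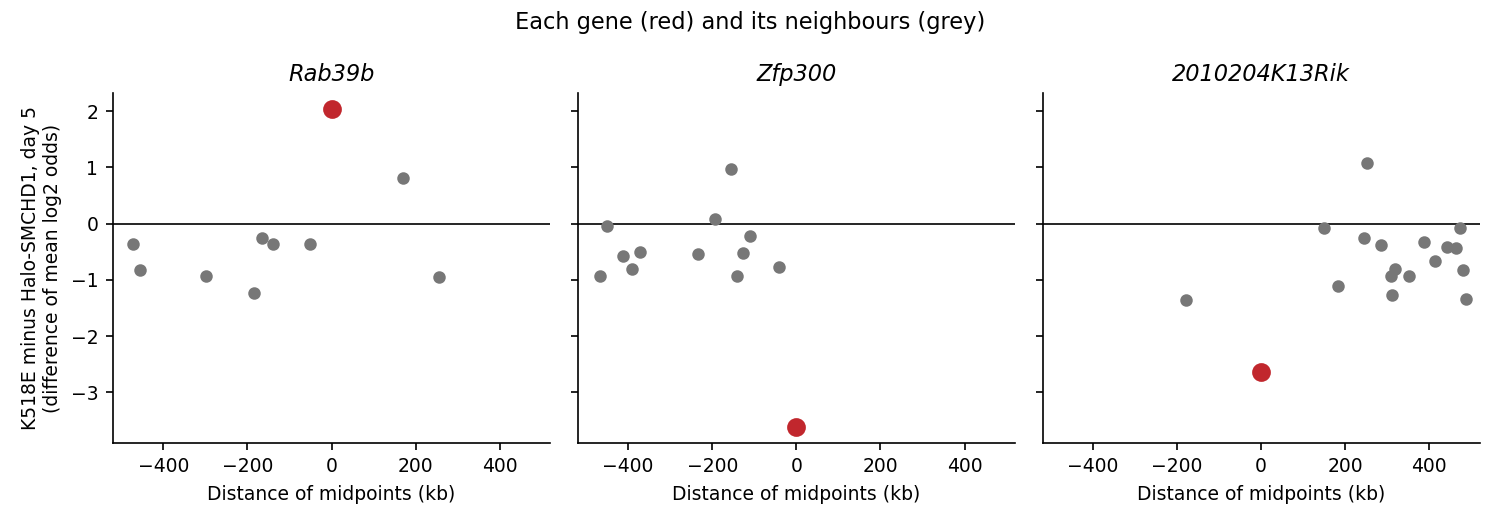
Difference of mean log2 odds between K518E and Halo-SMCHD1 at day 5 for each gene (red) and the genes within 0.5 Mb (grey), by distance between midpoints in kb. The neighbours lie between -1.35 and 1.07, most of them below 0, while the 3 genes lie at 2.03, -3.62 and -2.63. The 3 genes were chosen by their day 5 values, so their distance from the neighbours is not a result.

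At day 7 the neighbours were largely higher in E147A, where Zfp300 was at 0. All 13 genes measured near Zfp300 were higher in E147A than in Halo-SMCHD1, with a median difference of 1.21, and 2 passed the test, where 217 of all 249 genes were higher, with a median of 0.87, and 9.64% passed. The 2 were Zfp182, from a mean of 0.0807 to 0.166 (difference 1.10, limma adjusted p = 0.0131), and Araf, a kinase of the RAF family (difference 1.44, limma adjusted p = 0.021). Of the 17 near 2010204K13Rik, 15 were higher, with a median of 1.13, and 2 passed, the autophagy gene Wdr45 and the transcription factor gene Tfe3. All 9 near Rab39b were higher, with a median of 1.08, and 2 passed, Mtcp1 and Brcc3. The number of genes called over the whole table for E147A fell to 2 without its unnumbered library. For K518E at day 7 none of these neighbours passed, and the medians were -0.14 near Zfp300, -0.02 near 2010204K13Rik and 0.10 near Rab39b. At 24 h the 12 neighbours of Zfp300 had a median change of -1.08 over 6 lines, where Zfp300 had -1.68.

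The day 5 values of other genes of the same kind are given as a description only, since day 5 values chose the 3 genes. Over all 242 genes, 193 were lower in K518E at day 5. Of 14 listed zinc finger genes other than Zfp300, 10 are in the table with K518E, and 8 of them were lower in K518E than in Halo-SMCHD1 at day 5 on the log2 odds scale, with a median difference of -0.66. Among them Zfp449 had a mean of 0.119 in Halo-SMCHD1 and a difference of -1.01, and Zfx, a transcription factor gene, had a mean of 0.294 and a difference of -0.12. At day 7 none passed the test for K518E, with 4 higher and 6 lower, and for E147A 1 of 11 did, Zfp182, beside 9.64% of all genes. Of 15 listed genes of membrane traffic other than Rab39b, 8 are in that table, and 6 were lower in K518E at day 5 with a median of -0.37. Tbc1d25, a RAB GTPase-activating protein gene, had a day 5 difference of -1.18. At day 7 none passed for K518E, with 5 higher and 3 lower, and for E147A 1 of 8 did, Tbc1d25 (difference 1.12, SE 0.31, limma adjusted p = 0.0479), again beside 9.64% of all genes. At 24 h all 10 zinc finger genes and all 8 membrane traffic genes measured in both tables fell, in a contrast that called 96.7% of the genes.

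Over the 20 libraries of the table with K518E, the values of the 3 genes did not run together once the median of each library was taken off. Spearman's rho between them, across libraries of mixed lines and stages, was -0.20 for Rab39b and Zfp300, 0.31 for Rab39b and 2010204K13Rik and -0.01 for Zfp300 and 2010204K13Rik. The genes most alike to Rab39b were Pola1 (rho 0.84), Gpc3 (0.78) and Slc9a7 (0.77). Where Rab39b is at 0, its centred value is set by the library median alone, which these libraries share. Pola1, which encodes the catalytic subunit of DNA polymerase alpha, was at 0.0197 and 0.0199 in K518E at day 5 and between 0.0257 and 0.033 in Halo-SMCHD1, so it did not share the direction of Rab39b. The most alike to Zfp300 were Elf4 (0.52), Praf2 (0.51) and Fam3a (0.49), and to 2010204K13Rik they were Zdhhc9 (0.71), Jade3 (0.71) and Slitrk4 (0.65). Elf4, an ETS transcription factor gene, was at 0.023 and 0.0244 in K518E at day 5, against 0.106 and 0.172 in Halo-SMCHD1, and it had the lowest day 5 difference after Zfp300 and 2010204K13Rik.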

How the data were processed

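ChrRNA-seq libraries of 7 lines were analysed, 34 in all. Per the study's methods, the authors removed reads that mapped to rRNA (bowtie2 2.3.2), placed the remaining reads on mm10 with strain variants masked (STAR 2.4.2a or 2.7.9a, unique alignments only), assigned them to 129S or Cast (SNPsplit 0.4.0dev), filtered and sorted them (samtools 1.16.1) and counted them by strand over whole transcripts (featureCounts). What the authors deposited is, for each gene with at least 10 reads over SNPs and each library, the fraction Xi/(Xi+Xa), with no scaling between libraries and no pooling. Counts were not used here, so precision from depth cannot be given. The 239 genes and 14 libraries that the tables share have identical values, and no 2 libraries are identical. In all, 2 columns match no sample label and were not used, so the planned comparisons with iXist-ChrX were left out. An E147A library at day 7 was assigned to its group without a number.

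Fractions r were transformed to log2((r + 0.01)/(1 - r + 0.01)). Day 7 lines were compared with limma 3.58.1 (lmFit and eBayes, R 4.3.3) over all genes of a table and its day 7 libraries, and 24 h with uninduced libraries with the line as a block, both with Benjamini-Hochberg adjustment at 0.05. Rab39b was fitted over the 3 lines of its table. G137E and K518E were compared in the table with K518E. The fits were tested on simulated data. Figures were drawn with matplotlib 3.10.9 in Python 3.11.15. The members, the gene lists and the rules were chosen with earlier results of these data known. The genes named are the 3 members, Xist, genes with midpoints within 0.5 Mb, the 3 genes most alike to each member by Spearman's rho, and members of the lists. Genes next in the day 5 order or at 0 in the same libraries were named after their values were seen. Gene models are from GENCODE vM21 and promoters from RefSeq, and 50 of 252 genes had no promoter entry.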

Additional observations from a re-analysis of the deposited data

How the results depend on the processing

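The 24 h falls of Rab39b, Zfp300 and 2010204K13Rik kept their direction and passed the test under every alternative run. Leaving out a line gave -2.88 to -2.58 for Rab39b, -1.90 to -1.45 for Zfp300 and -2.05 to -1.72 for 2010204K13Rik. No day 7 test of Zfp300 or 2010204K13Rik passed under any alternative. Rab39b, with no spread at day 7, was left out of these runs. The number of genes called at day 7 changed with the setting. For K518E it was 1 with a pseudocount of 0.001 and 0 to 1 on leaving out a library. For G137E it was 0 to 3 and for LRIF1 KO 0 to 1 on leaving out a library, and 1 for LRIF1 KO in a fit of the 2 lines compared alone. For E147A it was 15 and 38 with pseudocounts of 0.001 and 0.05, 41 on untransformed fractions, 40 with days 5 and 7 in one fit, 1 in a fit of the 2 lines alone and 2 to 57 on leaving out a library. For Y353C it was 3 with a pseudocount of 0.001, 3 on untransformed fractions, 0 in a fit of the 2 lines alone (47 at an unadjusted p under 0.05 in the fit of all lines) and 1 to 8 on leaving out a library. The cause was not tested. The alternatives planned for comparisons with iXist-ChrX were not run.

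Signs that turned belonged to differences far from the threshold. For LRIF1 KO, 2010204K13Rik was at -0.39 with a pseudocount of 0.001, and Zfp300 at 0.20 with a pseudocount of 0.05 and at 0.0389 as a difference of fractions. On leaving out a library, 2010204K13Rik ranged from -1.44 to 0.96 for K518E, from -1.44 to 0.0345 for G137E, from -1.44 to 1.51 for LRIF1 KO and from -1.44 to 0.72 for E147A, and Zfp300 from -2.42 to 2.41 for LRIF1 KO. Without a change of sign, 2010204K13Rik ranged from 0.196 to 1.55 for Y353C, and Zfp300 from -2.88 to -0.92 for K518E, from -2.51 to -0.59 for G137E and from -3.63 to -1.70 for E147A and for Y353C.

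Deviations of same-numbered day 7 libraries of different lines were weakly correlated, at 0.01 to 0.13 in the table with K518E (median 0.045). In the other table they were at -0.14 to 0.25 (median 0.051). Differently numbered libraries had -0.13 to 0.09 (median -0.045) and -0.25 to 0.23 (median -0.027). The same-numbered medians were thus slightly higher, but the number was not taken as pairing. With the replicate number as a block, Y353C had 5 calls, and K518E, G137E and LRIF1 KO had 0. The LRIF1 KO difference was 0.075 for Zfp300 and -0.57 for 2010204K13Rik. The unnumbered E147A library formed a block by itself, so in this fit the E147A estimate rested on replicate 1 alone. Its number of calls is therefore not given. The block changed the call of neither Zfp300 nor 2010204K13Rik.

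The day 5 differences, for which alternatives were added after seeing the data, kept their sign without any single library. With pseudocounts of 0.001 and 0.05 they were 4.96 and 0.72 for Rab39b, -6.81 and -1.74 for Zfp300 and -5.72 and -1.06 for 2010204K13Rik.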
